A study of Mus musculus with 2 samples.

Results

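Small nucleolar RNAs (snoRNAs) and small Cajal body RNAs (scaRNAs) were described in the forebrain of newborn mice. Genes belonged to the set when their symbol, found through the Ensembl identifier in the GENCODE mouse annotation, began with Snora, Snord or Scarna followed by a digit. The rule found 147 of 43346 genes in both libraries, of which 97 were Snord, 41 Snora and 9 Scarna genes. The rule itself uses names only and no measured value, although it was set with earlier results of these data known. The study holds 2 libraries of total RNA, depleted of ribosomal RNA and limited by the labels to RNA over 200 nt, sequenced as stranded read pairs. Both come from the mouse strain B6NTac;B6NCrl/Lap at age 0 days after birth, with males and females pooled, and form 1 group with no treatment or altered allele in the labels. Replicate 1 was prepared from 15 mice, and the pool size of replicate 2 is not given in the labels, which treat them as separate isolates under 1 donor identifier. Each ± below is an SD over n = 2 libraries and measures the spread between those isolates only, which may be partly technical.

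SnoRNAs are short guide RNAs of the nucleolus that are mostly cut out of the introns of other genes. Box C/D RNAs (Snord) pair with ribosomal RNA and direct fibrillarin to methylate a ribose, and box H/ACA RNAs (Snora) direct dyskerin to turn a uridine into a pseudouridine. ScaRNAs (Scarna) carry the same boxes, gather in Cajal bodies, and guide the same changes on the small nuclear RNAs of the spliceosome. The Snord116 cluster of box C/D RNAs lies in an imprinted region that is active in neurons and is lost in Prader-Willi syndrome.

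Sequences of the members that the results turn on are printed 5′ to 3′ in DNA letters from the GENCODE M21 transcripts, with mm10 coordinates. Capitals mark TGATGA, the C box, in the first 20 bases, CTGA, the D box, in the last 15 bases, and ACA placed 3 bases before the end. Only the RNA's own strand was searched. The C and D box letters can overlap each other. The first set holds the scaRNAs, since they took most of the reads of the whole set. Scarna10 (chr6:125186359-125186683, minus strand, 325 nt) joins both kinds of guide and acts on U5, and only its first and last 80 bases are shown. Scarna2 (chr3:108554338-108554751, minus strand, 414 nt) guides methylation of U2, and its end, shown here, holds CTGA in 2 neighbouring copies. Scarna13 (chr12:105031075-105031349, minus strand, 275 nt) is of the H/ACA kind. Scarna6 (chr1:87784556-87784820, plus strand, 265 nt) carries the C and D boxes.
Scarna10, bases 1 to 80: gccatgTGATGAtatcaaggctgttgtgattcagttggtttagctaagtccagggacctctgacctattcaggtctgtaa
Scarna10, bases 246 to 325: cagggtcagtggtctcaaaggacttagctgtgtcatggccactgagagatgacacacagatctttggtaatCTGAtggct
Scarna2, bases 335 to 414: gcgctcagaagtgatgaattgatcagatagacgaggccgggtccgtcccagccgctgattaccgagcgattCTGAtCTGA
Scarna13: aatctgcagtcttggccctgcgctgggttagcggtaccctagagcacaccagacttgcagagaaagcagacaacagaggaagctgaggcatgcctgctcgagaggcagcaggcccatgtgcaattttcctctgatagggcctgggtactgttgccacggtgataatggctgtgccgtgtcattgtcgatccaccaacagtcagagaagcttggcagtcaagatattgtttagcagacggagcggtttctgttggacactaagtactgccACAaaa
Scarna6: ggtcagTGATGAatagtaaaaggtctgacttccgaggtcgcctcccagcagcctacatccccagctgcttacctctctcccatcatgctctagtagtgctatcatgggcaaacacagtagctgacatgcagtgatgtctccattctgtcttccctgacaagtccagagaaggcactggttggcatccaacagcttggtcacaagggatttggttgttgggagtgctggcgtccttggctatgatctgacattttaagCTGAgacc

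The second set holds the snoRNAs that had at least 10 counts in each library, and Snord15a as the near relative of Snord15b. Snord17 (chr2:144265979-144266216, minus strand, 238 nt) is the longest Snord gene. Snord15a (chr7:99482785-99482932, minus strand, 148 nt) and Snord15b (chr7:99479563-99479707, minus strand, 145 nt) are box C/D guides of 28S ribosomal RNA. They were identical in 65.6% of 154 aligned positions. In the pair Snora73a (chr4:132352775-132352979, minus strand) and Snora73b (chr4:132352322-132352526, minus strand), H/ACA RNAs that take part in cutting the ribosomal RNA precursor, capitals mark instead the bases that differ. The copies, both of 205 nt, differed at 7 positions and were 96.6% identical. Counted from 1 at the 5′ end, with the base of Snora73a first, the changes were G3A, G54A, A111G, T164C, G203A, T204A and T205A.
Snord17: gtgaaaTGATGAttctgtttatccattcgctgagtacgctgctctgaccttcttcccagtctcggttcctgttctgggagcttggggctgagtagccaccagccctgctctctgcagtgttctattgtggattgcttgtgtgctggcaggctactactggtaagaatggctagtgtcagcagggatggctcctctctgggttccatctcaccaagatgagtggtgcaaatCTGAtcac
Snord15a: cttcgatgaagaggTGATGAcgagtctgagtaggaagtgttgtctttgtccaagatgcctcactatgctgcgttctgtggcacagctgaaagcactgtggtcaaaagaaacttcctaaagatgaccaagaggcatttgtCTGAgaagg
Snord15b: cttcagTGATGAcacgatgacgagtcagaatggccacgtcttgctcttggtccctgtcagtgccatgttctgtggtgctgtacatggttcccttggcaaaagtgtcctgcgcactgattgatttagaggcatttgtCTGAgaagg
Snora73a: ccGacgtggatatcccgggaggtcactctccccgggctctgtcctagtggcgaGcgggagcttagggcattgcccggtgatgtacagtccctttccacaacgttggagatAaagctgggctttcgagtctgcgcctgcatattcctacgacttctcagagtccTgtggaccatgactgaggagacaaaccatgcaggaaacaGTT
Snora73b: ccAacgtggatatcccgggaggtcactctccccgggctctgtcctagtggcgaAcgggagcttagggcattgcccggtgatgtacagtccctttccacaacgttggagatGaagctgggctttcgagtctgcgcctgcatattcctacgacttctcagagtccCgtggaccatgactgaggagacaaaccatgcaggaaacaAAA

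The third set holds members at 0 in both libraries that are set below against their host genes. Snord116l1 (chr7:59894620-59894713, minus strand, 94 nt) has the sequence shared by 14 of the 17 Snord116 copies, and the other copies differ from it at up to 3 positions. Snord37 (chr10:81178950-81179013, plus strand, 64 nt) is a box C/D guide.
Snord116l1: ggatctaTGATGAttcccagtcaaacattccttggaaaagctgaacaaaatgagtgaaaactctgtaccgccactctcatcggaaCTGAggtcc
Snord37: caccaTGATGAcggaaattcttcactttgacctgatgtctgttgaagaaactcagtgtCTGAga

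The boxes were counted by class of name. The names themselves stand for the box classes, so a match is not a separate result. Of 97 Snord members, 69 (71.1%) had the C box in the first 20 bases, 91 (93.8%) had the D box in the last 15 bases, and 67 (69.1%) had both. Of the 40 Snora members with a matching model, 33 (82.5%) had ACA at 3 bases from the end and 0 had the C box. The 9 Scarna members were mixed, with both C and D boxes in 4 and the ACA in 2. As a background, both boxes stood in 0 of 1383 small nuclear RNA genes and in 1 of 2202 miRNA transcripts, and the ACA in 0.94% and 3.27% of them. Among 1411 other snoRNA or scaRNA transcripts, 239 (16.9%) had both boxes and 265 (18.8%) the ACA. A match describes letters in a window and is not evidence that a guide works, and a missing match says only that those letters are not there.

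The whole libraries held 61441535 gene counts in replicate 1 and 65097130 in replicate 2, and CPM below stands for a member's counts scaled to 1000000 of these. RNA spike-ins took a further 1.72% and 1.24% of the counts of all features. A count of 0 allowed up to 3 counts, or 0.0488 and 0.0461 CPM. These limits and all intervals cover counting error only, since reads copied by PCR are not independent molecules. The forebrain label was checked on Emx1, which had 1091 and 740 counts, and Dlx2 with 880 and 1374, while the hindbrain and cord genes Hoxa5 and Hoxb4 had 0 counts in both. Every library value is a bulk value, in which fewer cells of a type and less RNA per cell cannot be told apart.

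Most members had no counts at all. In both libraries 130 of 147 members (88.4%) were at 0, 17 had a count in at least 1 library, 11 had counts in both, and 9 (6.12%) had at least 10 counts in each. By class, 93 of 97 Snord, 32 of 41 Snora and 5 of 9 Scarna genes were at 0 in both. All members together took 0.114% of gene counts in replicate 1 (95% Wilson interval 0.113 to 0.115%) and 0.0350% in replicate 2 (0.0346 to 0.0355%). The mean share was 0.0745 ± 0.0557%, so the spread between the isolates was nearly as large as the share itself.

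The reads that did fall on the set belonged almost wholly to scaRNAs. Scarna genes held 99.1% of the members' counts in replicate 1 and 96.1% in replicate 2. Snora genes held 0.866% and 3.60%, and Snord genes, the most numerous class, 0.0643% and 0.342%. The order of the classes was the same in both libraries. Scarna10 alone held 88.9% of the members' counts in replicate 1 and 68.5% in replicate 2. Without it Scarna genes held a mean of 89.5%, Snora 9.63% and Snord 0.834%. Of the 606 and 820 Snora counts, 428 and 573 belonged to Snora43, whose gene model is longer than the small RNA, as described below.

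**Figure D1:**
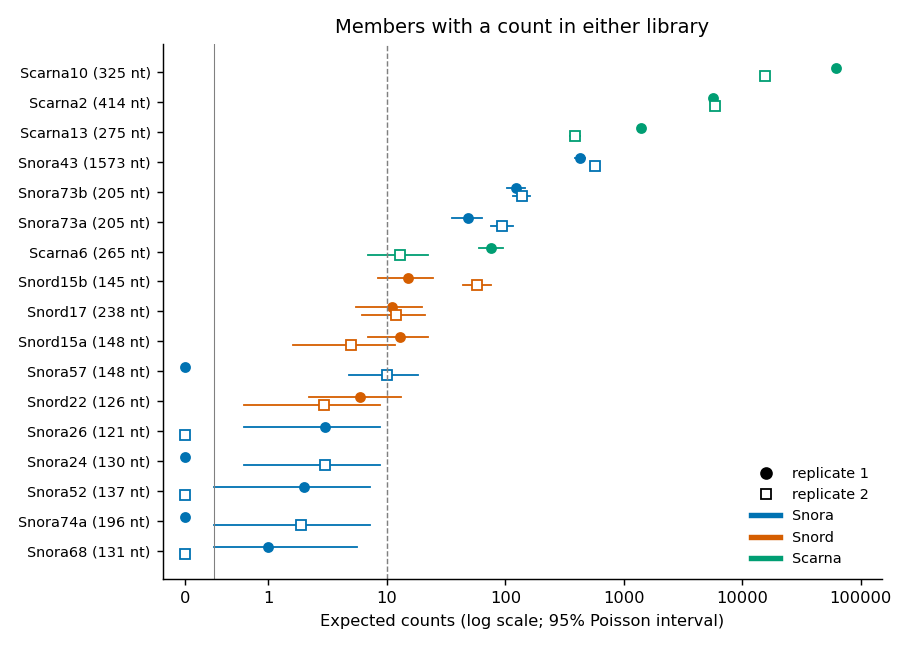
Expected counts (log axis, with a strip for 0 left of the grey line) of the 17 members with a count in either library, ordered by mean CPM. Filled circles are replicate 1, open squares replicate 2, colours the classes, bars 95% Poisson intervals drawn no further left than the grey line, and the dashed line marks 10 counts. Scarna10, Scarna2 and Scarna13 stand at the top, and the symbols of the libraries lie apart for Scarna10, Scarna13 and Scarna6, which are higher in replicate 1, and for Snord15b, which is higher in replicate 2.

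Scarna10 had 62220 counts in replicate 1 and 15627 in replicate 2, or 1013 and 240.1 CPM. The mean was 626 ± 546 CPM, and replicate 1 was the higher library by 4.22 times. Scarna2 had 5609 and 5879 counts, or 91.3 and 90.3 CPM (90.8 ± 0.692). Unlike those of Scarna10, its 95% Poisson intervals in the libraries overlapped (88.9 to 93.7 and 88.0 to 92.7 CPM). Scarna13 had 1402 and 388 counts, or 22.8 and 5.96 CPM, again higher in replicate 1. Scarna6 had 76 and 13 counts, or 1.24 and 0.200 CPM, with intervals (0.975 to 1.55 and 0.106 to 0.342 CPM) that did not overlap. The other Scarna members, Scarna3a (140 nt), Scarna3b (139 nt), Scarna8 (131 nt), Scarna17 (79 nt) and Scarna9 (70 nt), were at 0 in both.

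Among the H/ACA RNAs, Snora73b had 124 and 138 counts (2.02 and 2.12 CPM) and its copy Snora73a had 48 and 94 (0.781 and 1.44 CPM). Snora73b was the higher copy in each library. The copies share long identical stretches, so how the deposited counts split reads between them is uncertain. The deposited posterior SD of both was 0, and the largest of any member was 0.5 counts. Snora57 had 0 and 10 counts, Snora26 had 3 and 0, and Snora24 had 0 and 3, so that none of these had counts in both libraries. The counts of Snora26 and Snora24 lie at the limit that a count of 0 allows, and the 10 counts of Snora57 in replicate 2 lie above it.

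The highest Snora value by counts carries a limit on its identity. Snora43 (ENSMUSG00000097052) had 428 and 573 counts, or 6.97 and 8.80 CPM. The M21 annotation gives it a span of 139 nt (chr2:26637847-26637985), whereas the deposited tables give it 2 transcripts and lengths of 1573 and 1713 nt. Its counts are therefore those of a longer model and cannot be read as counts of the small RNA. A second gene of the same symbol (ENSMUSG00000064858, 127 nt) was at 0 in both. Without the long model, 8 members had at least 10 counts in each library, and Snora genes held 0.254% and 1.08% of the set's counts.

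Of the box C/D RNAs, 4 of 97 had any count. Snord15b had 15 and 58 counts (0.244 and 0.891 CPM), Snord15a 13 and 5 (0.212 and 0.0768 CPM), and Snord17 11 and 12 (0.179 and 0.184 CPM). Snord22, needed for processing of 18S ribosomal RNA in vertebrates, had 6 and 3 counts, near the limit of detection. Snord15b and Snord15a thus stood at similar counts in replicate 1 and apart in replicate 2. Both lie in the ribosomal protein gene Rps3, and the whole of Snord15b is covered by an exon of an Rps3 transcript in the annotation, so reads of that transcript and of the snoRNA cannot be told apart.

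Members were next split by length. No member under 100 nt had a count, 0 of 88, of which 86 were Snord genes, and the same held for all 2218 genes under 100 nt in the tables. From 100 to under 150 nt, 8 of 48 members had a count and 1, Snord15b, had at least 10 in each library. From 150 to 200 nt, 1 of 3 members had a count. Over 200 nt, 8 of 8 had at least 10 counts in each library, or 7 of 7 without the long Snora43 model. The shortest member with a count was Snora26 at 121 nt, and the shortest gene of any kind with a count had 117 nt. Nearest to the 200 nt bound, Snora74a (196 nt) had 0 and 1.89 counts, and Snora73a and Snora73b (205 nt) had the counts given above.

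Members over 200 nt held 99.9% of the set's counts in replicate 1 and 99.7% in replicate 2. Of 428 other short noncoding genes over 200 nt, 10 (2.34%) had at least 10 counts in each library and 391 were at 0 in both. From 100 to under 150 nt the share was 0.148% of 2709 such genes, against 1 of 48 members (2.08%). These shares are descriptions without a test. The labels' size limit of 200 nt falls in the same place as the gap between the bins, and its part in the zeros was not tested. Snord15b and Snora26, below that limit, had counts, but they lie wholly over exons of Rps3 and Dancr. Reads of those genes and of the small RNAs cannot be told apart there. Snord15a, in an intron of Rps3, and Snora57, inside no other gene on its strand, also had counts. The deposited effective length, the number of places where a fragment can start, also becomes 0 near 200 nt. The longest gene with an effective length of 0 had 207 nt in replicate 1 and 209 nt in replicate 2. Effective length was 0 in both libraries for 141 members, among them every member at 0 counts in both. Members of this kind could still have counts, as 8 did in each library. The part of effective length in the zeros was not tested either. A member at 0 was not detected in these libraries and is not shown to be absent from the tissue.

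**Figure D2:**
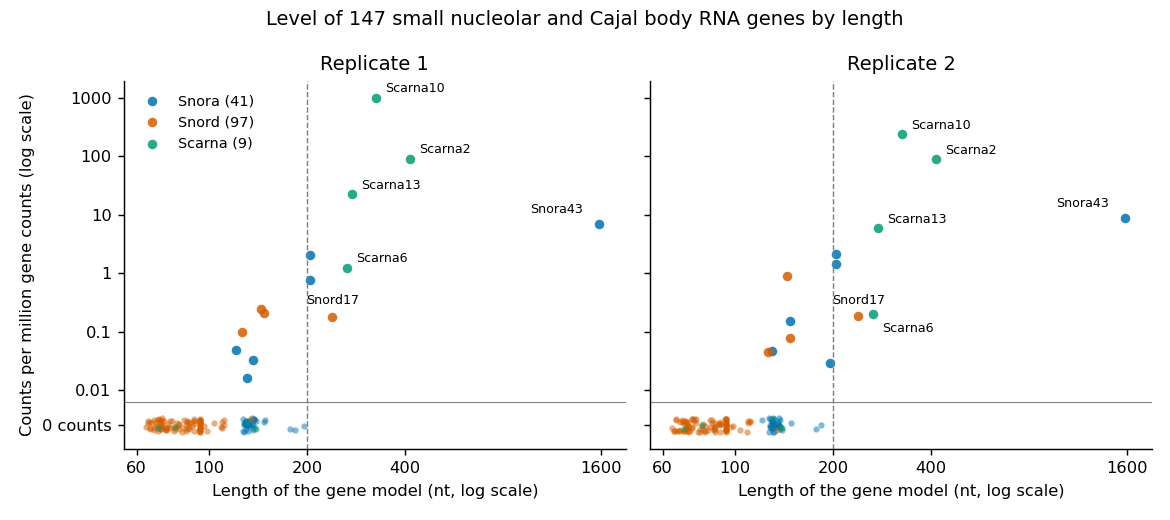
CPM (log axis, with a strip for 0 counts) against the length of the gene model (nt, log axis) of all 147 members in each library. Points are genes coloured by class and the dashed line marks 200 nt. All 88 members under 100 nt lie in the strip for 0 counts, while the 8 members over 200 nt all lie above it.

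The unit changes the picture for RNAs this short. TPM divides counts by an effective length, the number of places where a fragment can start, and this was 0 in both libraries for 141 of 147 members. In each library 8 members had counts and a TPM of 0, Snora73a and Snora73b among them. Snord17, with 11 and 12 counts, was listed at 9.80 and 34.3 TPM, with effective lengths of 6.93 nt in replicate 1 and 3.20 nt in replicate 2. TPM also divides by a total over all features of the library. For Snord17 replicate 1 over replicate 2 was 0.423 per base of effective length and 0.286 by TPM. Scarna2 was higher in replicate 2 by TPM (208 and 370) though nearly equal by CPM, and its ratios on those scales were 0.834 and 0.562. By TPM, Scarna10 stood at 4945 and 2513, Scarna13 at 292 and 225, and Scarna6 at 21.6 and 11.1. On this scale, which is per length, Scarna13 was above Scarna2 in replicate 1 and below it in replicate 2, so the order of the pair is not settled, while Scarna10 was the highest member in both.

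The libraries were next compared gene by gene with a two-sided exact binomial test on rounded counts, scaled by TMM factors of 0.934 and 1.07 and adjusted over 17536 genes. A gene was called at an adjusted p under 0.05 and a change of at least 2-fold. It sets the reads of 1 library against those of the other and says nothing of conditions. Of 9 members with a mean of at least 10 counts, 3 were lower in replicate 2 and 1 was higher. Over all genes tested 4.88% were called lower and 5.42% higher. The median log2 ratio of replicate 2 over replicate 1 was -0.16 over the 9 members and 0.00 over all genes. With plain library totals as the scale, these medians were 0.04 and 0.19, and the calls over all genes were 1299 higher and 647 lower in place of 951 and 855.

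Scarna10 fell by 2.27 on the log2 scale (SE 0.01, 95% interval -2.30 to -2.25), Scarna13 by 2.13 (SE 0.08, -2.29 to -1.97) and Scarna6 fell by 2.78 (SE 0.43, -3.62 to -1.95). The adjusted p of the exact binomial test was 1.24e-178 for Scarna13 and 4.83e-14 for Scarna6. Snord15b rose by 1.64 (SE 0.41, exact binomial adjusted p = 5.13e-05). Scarna2 stood at -0.21 (SE 0.03), a difference beyond counting error after TMM scaling (exact binomial adjusted p = 3.11e-14) but under 2-fold. In this pair of libraries Scarna2 thus changed less than Scarna10, Scarna13 and Scarna6, by more than counting error. These intervals hold no spread between preparations.

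The remaining members stayed under the threshold. Snora73a was at 0.68 (SE 0.25, exact binomial adjusted p = 0.0133) and Snora73b at -0.13 (SE 0.18, adjusted p = 0.593 by the same exact test). Snord17 was at -0.16, with a wide 95% interval of -1.31 to 1.00 that its 11 and 12 counts allow. The long Snora43 model was at 0.14 (SE 0.09). Snord15a had too few counts to be tested.

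**Figure D3:**
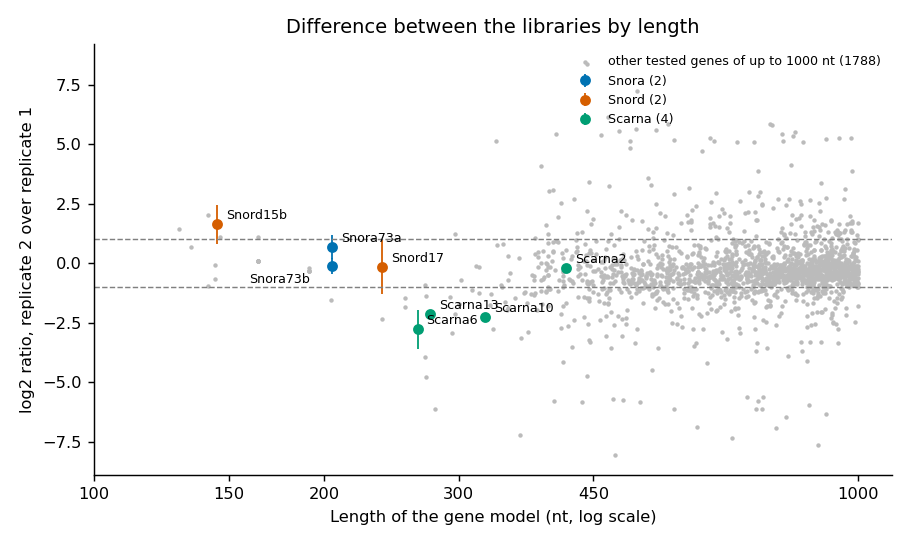
log2 ratio of replicate 2 over replicate 1 against gene model length (nt, log axis) for tested genes of up to 1000 nt, with the 8 members in colour and other genes in grey. Bars are 95% intervals from counting error and dashed lines mark 2-fold. Scarna6, Scarna13 and Scarna10 lie below the lower dashed line and Snord15b above the upper one.

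Other genes of like length also differed between the libraries. Among tested genes that are not members, the median log2 ratio was -1.71 over 200 and up to 300 nt, where 13 of 15 (86.7%) were called lower, and -0.51 over 300 and up to 450 nt, where 32.7% of 153 were. It was -0.39 over 450 and up to 1000 nt, 0.02 over 1000 nt, and 0.08 over 20 genes from 100 to 200 nt, of which 0 were called lower. Scarna10 (-2.27) thus lay below the lower quartile of its length bin (-1.23), and Scarna13 (-2.13) lay between the quartiles of its own (-2.64 and -1.43). Scarna6 (-2.78), in the same bin as Scarna13, lay below the lower quartile. Snora73a, Snora73b and Snord17, in the bin over 200 and up to 300 nt, lay above its upper quartile.

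Noncoding RNAs outside the set showed values of the same kind. Rmrp, the RNA of RNase MRP, had 12.4 times the counts in replicate 1 of those in replicate 2, Rn7sk, which holds back the elongation factor P-TEFb, 2.04 times, and Rpph1, the RNA of RNase P, 1.93 times. All 3 were called lower in replicate 2. Terc, the telomerase RNA, which itself ends in an H/ACA domain, had 327 and 225 counts and was not called (log2 ratio -0.82).

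Fragment lengths also differed between the libraries. The effective lengths in the deposited tables imply mean fragments of 248.7 nt in replicate 1 and 269.7 nt in replicate 2. Fragments of at most 275 nt, the length of Scarna13, made up 84.6% of replicate 1 and 57.4% of replicate 2. For Scarna6 (265 nt) the shares were 72.7 and 43.5%, for Snord17 (238 nt) 36.7 and 15.3%, for Scarna10 (325 nt) 99.5 and 97.0%, and for Scarna2 (414 nt) 99.9 and 99.8%. Snord17 had nearly equal CPM at unlike shares, but from only 11 and 12 counts, with a log2 interval of -1.31 to 1.00. Scarna10 had unlike CPM at nearly equal shares, while its effective length was 77.62 nt in replicate 1 and 56.95 nt in replicate 2. Per base of effective length, the counts of replicate 1 over replicate 2 were 2.92 for Scarna10, 1.93 for Scarna13, 2.90 for Scarna6, 0.834 for Scarna2 and 0.423 for Snord17. The ratios by CPM were 4.22, 3.83, 6.19, 1.01 and 0.971. Thus Scarna10, Scarna13 and Scarna6 remained higher in replicate 1 on either scale, by a smaller factor per effective base. The part of fragment length in the differences was not tested beyond these values.

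**Figure D4:**
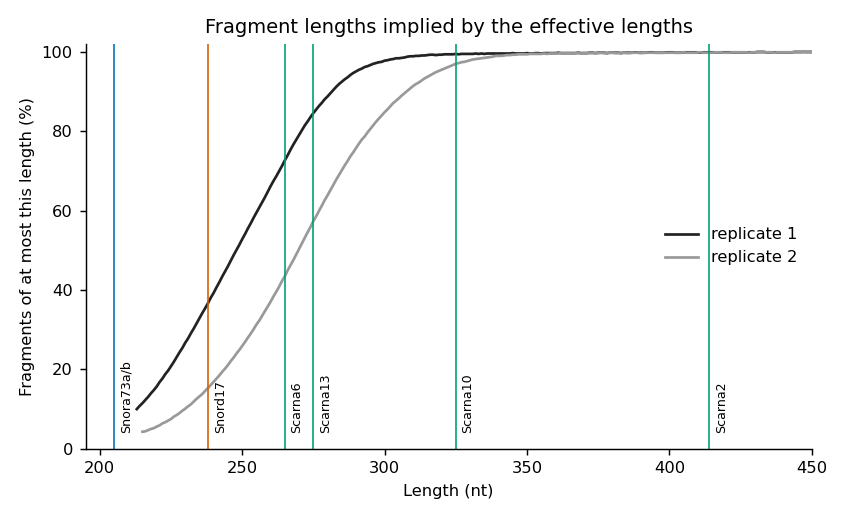
Percent of fragments of at most a given length (nt) in each library, as implied by the steps of the effective lengths, with the lengths of named members as vertical lines. At the lengths of Scarna6 and Scarna13 the curve of replicate 1 lies above that of replicate 2 (72.7 against 43.5% and 84.6 against 57.4%), and at that of Scarna2 they meet.

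Because most snoRNAs are cut from introns, each member was set against the shortest gene of another kind that contains it on the same strand. Such a host was found for 138 of 147 members, of which 75 lay within an intron, 9 partly over an exon and 54 wholly over an exon of some annotated transcript. The 138 members lay in 90 different hosts. Host values were in the tables for 132 members, and the median host level was 103 CPM in replicate 1 and 94.8 in replicate 2 (scaled to reads, not per length). Among the members at 0, 123 had a host in the tables, with medians of 105 and 95.5 CPM, and 107 of these members had a host of at least 10 CPM. Most members at 0 therefore lay in genes that were themselves well covered by reads. All members at 0 had an effective length of 0 in both libraries, so their zeros are not levels to set against those of the hosts. Of the 130 members at 0, 70 lay within an intron and 47 wholly over an exon. For the wholly exonic ones, reads of the host and of the small RNA cannot be told apart.

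Snord37 was at 0 although its host Eef2, the translation elongation factor, had 2011 and 2143 CPM. Snord14c, Snord14d and Snord14e, guides that also serve 18S processing, were at 0 in the chaperone gene Hspa8 (2073 and 1771 CPM). They lie wholly over exons of Hspa8, whereas Snord37 lies in an intron of Eef2. The 17 Snord116 copies, the only family of at least 5 members, were all at 0 in each library, within introns of Snhg14, the long imprinted transcript of the region, which had 233 and 334 CPM. Since 14 of these copies share one sequence, reads from them could not be assigned to a single copy, but the summed counts of the family were 0 as well. In Gas5, a snoRNA host gene with 48.4 and 51.4 CPM, Snord47, Snord78 and Snord80 were at 0, and they too lie wholly over exons.

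The 9 members with a count and a host in the tables had a median host level of 64.8 CPM, against 104 CPM for members at 0 (means of the libraries). Scarna10 lies partly over an exon of Ncapd2, a condensin subunit gene with 39.9 and 50.1 CPM, which is higher in replicate 2 while Scarna10 is higher in replicate 1. Scarna6 lies in an intron of the autophagy gene Atg16l1 (59.2 and 70.5 CPM) and Snord17 in one of the sorting nexin gene Snx5 (49.9 and 44.8 CPM). Snora73a and Snora73b lie in Snhg3, Snora73a partly over an exon and Snora73b in an intron. The 1.95 and 2.15 CPM of Snhg3 are of the order of those of the snoRNAs. Both copies also lie in introns of the longer gene Rcc1, which had 11.59 and 15.15 CPM. Scarna13 lies in an intron of Snhg10, which has no row in the tables, and Scarna2 has no host.

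Across the 132 members with a host value, the correlation of log2 CPM of member and host, with 0.01 CPM added, was r = -0.10 and rho = -0.08. Nearly all points share a member value of 0, so this is a description with no test. Over the 6 members with at least 10 counts in each library and a host value, the median host level was 46.2 CPM. Members with no host that were at 0 included Snord118, which acts in maturation of the large ribosomal subunit, and Snord13. Absence of a host thus went with the second most counted member, Scarna2, and also with members at 0.

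**Figure D5:**
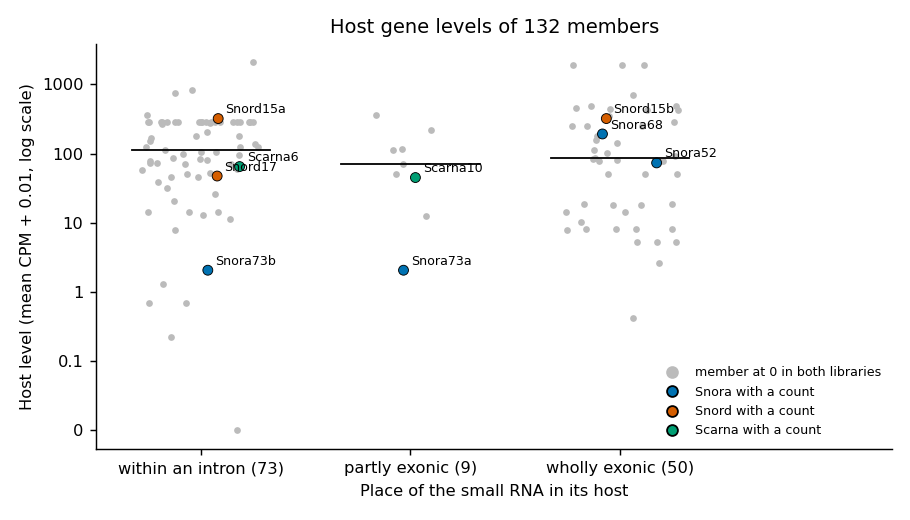
Mean host level (CPM with 0.01 added, log axis) of the 132 members with a host in the tables, by the place of the member in its host. Grey points are members at 0 in both libraries, coloured points members with a count, and bars the medians. Members at 0 reach host levels above 1000 CPM (Snord37, and Snord14c to Snord14e), and Scarna6, Scarna10 and Snord17 lie near or below the medians.

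Protein genes of the snoRNA and scaRNA particles were read in both libraries. They are given as TPM rescaled to protein-coding genes (coding TPM), which is per length. All 27 listed genes had at least 1 coding TPM in each library, and 25 had at least 1 TPM. None of the 27 was called between the libraries (0 higher and 0 lower, by the same exact binomial test and fold threshold). Over all tested genes 5.42% were called higher and 4.88% lower. The log2 ratios of the 27 genes ran from -0.63 to 0.41 with a median of -0.24. At an adjusted p under 0.05 alone 21 of them passed, each under 2-fold. The share of all tested genes at that p alone is not given here, so the count cannot be read as a trait of these genes.

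Of the box C/D core proteins, Snu13, which binds the kink-turn of the RNA, had 276.6 ± 23.9 coding TPM, Nop56 172.4 ± 8.09, Nop58 82.4 ± 7.25, and the methyltransferase Fbl 36.8 ± 5.90. Of the H/ACA core, Nop10 had 104.0 ± 17.8, Nhp2 71.3 ± 10.5, the pseudouridine synthase Dkc1 24.0 ± 11.3 and Gar1 7.78 ± 1.31 coding TPM. The median of the C/D core was 127.4 ± 0.410 and that of the H/ACA core 47.7 ± 0.421 coding TPM. Dkc1 had 16.0 and 32.0 coding TPM although its counts were alike (795 and 919), and its effective length was 2259 nt in replicate 1 and 1192 nt in replicate 2.

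Assembly factors ran from 5.21 ± 1.42 for Znhit6 to 110 ± 4.54 for Pih1d1, a part of the R2TP chaperone complex. In the same complex Ruvbl2 had 98.3 ± 8.90, Ruvbl1 56.0 ± 2.02 and Rpap3 38.4 ± 3.13 coding TPM. Znhit3 had 43.8 ± 7.53, Nufip1 12.4 ± 1.23, Naf1 10.3 ± 1.35 and Shq1, a chaperone of dyskerin, 6.11 ± 1.38. Thus the early H/ACA factors Naf1 and Shq1 stood below the R2TP members in both libraries.

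Of the Cajal body and transport genes, Phax, an adaptor for nuclear transport of capped small RNAs, had 86.1 ± 4.13 coding TPM and Coil, the coilin scaffold of the Cajal body, 41.7 ± 2.59. Smn1 had 33.9 ± 5.31, Nolc1 32.2 ± 4.80, the cap hypermethylase Tgs1 15.6 ± 2.15, and Wrap53, which binds the Cajal body signal of H/ACA scaRNAs, 11.4 ± 1.67. Of the genes that free and trim intron-encoded RNAs, the exonuclease Xrn2 had 92.0 ± 1.17, Exosc10 72.6 ± 6.22, the debranching enzyme Dbr1 25.6 ± 5.86 and the deadenylase Parn 16.2 ± 1.24 coding TPM. Genes for each step of the pathway were thus detected in the same libraries in which 130 guides were at 0. Those guides all had an effective length of 0 in both libraries, so their zeros are no measure of guide levels in the tissue.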

How the data were processed

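Stranded, paired-end total RNA libraries of newborn forebrain were analysed from gene tables that the authors deposited on mm10 with GENCODE M4, per the text files supplied with the samples. Which aligner and quantifier were used is not given in the sources used here. The deposited tables hold expected counts, TPM and FPKM, with posterior mean counts and their SDs, made for each library alone. Transcript tables were not used here.

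Symbols, types, coordinates and hosts came from GENCODE M21 by Ensembl identifier, which matched 42462 of 43346 genes. Of 150 M21 genes with a matching symbol, 3 have no row in the tables. Spike-ins and 26248 tRNA entries, all at 0, were left out of gene counts. Depth was 61441535 and 65097130 gene counts. Expected counts were rounded, and each gene averaging 10 counts or more was tested with the two-sided exact binomial test, using TMM factors from edgeR 4.0.16 and Benjamini-Hochberg adjustment. Ratios had 0.5 added to each count. DESeq2 1.42.0 gave alternative size factors, in R 4.3.3. Python 3.11.15 with scipy 1.17.1 and Biopython 1.88 served the other steps, and the test was checked on simulated counts. Those counts held counting error only, so the check says nothing of spread between libraries. The fragment lengths were derived from steps of the deposited effective lengths.

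The members and lists were chosen with earlier results of these data known. Named were the 6 highest members per class, members over 200 nt with at least 10 counts in each library, called members, families of at least 5 members, all genes of the particle list and 4 other noncoding RNAs. Members at 0 in abundant hosts, Scarna members at 0 and members without a host were named after their values were seen. A few values are not reported here.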

Additional observations from a re-analysis of the deposited data

How the results depend on the processing

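The count of members with at least 10 counts in each library was 9, and 5 at 100 counts. It was 10 without either replicate. The members' share of counts ran from 0.0350 to 0.114% without each replicate. By TPM the mean class shares were 0.0757% for Snora and 0.633% for Snord, in place of 2.23 and 0.203% by counts. Without Scarna10 the mean shares were 89.5% for Scarna, 9.63% for Snora and 0.834% for Snord, and members over 200 nt held 99.2%. The share for Snora and that for length over 200 nt include the long Snora43 model. Without each replicate the shares ran from 0.866 to 3.60% for Snora, 0.0643 to 0.342% for Snord, 96.1 to 99.1% for Scarna and 99.7 to 99.9% for length over 200 nt.

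Of the calls, 1 member was higher, and 2 with no count filter, 2 at 1.5-fold and 0 among members with a mean of at least 100 counts. The 0 has fewer members tested (5 in place of 9). With library totals the members' median log2 ratio was 0.04 in place of -0.16. The median host level was 82.2 CPM with the longest host, 46.2 CPM for members with at least 10 counts, and 94.8 to 103 CPM without each replicate. The other settings kept shares and host levels within the SD between replicates, and counts within 1.5 times. They kept the median ratio within the median counting SE of the tested members. For the shares, leaving out a replicate could not move a value beyond that SD. The members' mean share was 0.104% with mitochondrial and the 10 most abundant genes left out of the denominator, in place of 0.0745%. The setting without the long Snora43 model was chosen after seeing the data, and gave 8 members. No paired analysis was possible because both libraries form 1 group. With 2 libraries no test between conditions exists, and a 0 allows up to 3 counts in a library.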

Other observations

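Other genes of the snoRNA or scaRNA type that carry no Snora, Snord or Scarna symbol were mostly at 0 as well. Of 1344 such snoRNA genes, 28 had a count in either library and 5 had at least 10 in each. Of 34 such scaRNA genes, 6 had a count and 2 had at least 10 in each. The 3 genes over 250 nt named next were chosen after their values were seen. Gm22009, a scaRNA-type gene of 343 nt, had 562 counts in replicate 1 and 1187 in replicate 2, the opposite direction to Scarna10 (log2 ratio 0.80, SE 0.07). Gm25395, of 272 nt, had 439 and 19 counts (log2 ratio -4.77, SE 0.33). Gm23547, a snoRNA-type gene of 271 nt, had 194 and 124 counts (log2 ratio -0.92, SE 0.17). Gm25395, Gm23547 and Scarna13, of nearly the same length, had unequal log2 ratios. Among tested genes outside the set of over 200 and up to 300 nt, 13 of 15 were called lower. The part of length in these ratios was not tested.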
